A study of Mus musculus with 8 samples.

Results

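Skin that lost pRb but kept its relative p107 was compared with skin that had pRb, gene by gene. The comparison used 4 of the 8 arrays of the study, chosen by sample title: 2 arrays of pRb-/-;p107+/+ skin, called mutant arrays here, and 2 of pRb+/+ skin, called control arrays. All 22626 probe sets that were not array controls, of 22690 on the array, were described, and 1 probe set stood for each of 12393 genes. The samples were whole skin of newborn FVB mice, an inbred strain, and each array carried pooled RNA of 3 animals of 1 genotype. The labels of the control arrays do not give a p107 genotype, which is read here as wild type. The other 4 arrays, 2 of pRb+/+;p107-/- skin and 2 of pRb-/-;p107-/- skin, entered the fit because every score was standardized over all 8 arrays. The labels do not say which cells of the skin lost pRb. Mice without pRb in the whole body die before birth, so skin models usually delete the floxed gene with Cre driven by a keratin promoter, which leaves dermis, fat, muscle and vessels intact; whether that was so here the labels do not say.

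Rb1 encodes pRb, the retinoblastoma protein, which forms the pocket protein family with p107 (Rbl1) and p130 (Rbl2). They bind E2F transcription factors and hold back the genes of S phase until cyclin-dependent kinases phosphorylate them. In muscle and fat, pRb is also known to act with lineage factors during terminal differentiation, and in stratified epithelia it helps cells leave the cell cycle as they differentiate.

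The deposited value of a probe set is a z-score with mean 0 and SD 1 over the 8 arrays, so a difference of 1 is 1 SD of that gene over all arrays. Neither an RNA level nor a fold change can be read from it, and genes cannot be ranked by level. Values of an array pair are given in the order replicate 1, replicate 2. Differences are mutant minus control, with the SE of a linear model fitted with limma to all 8 arrays. "Nominal" marks an unadjusted p below 0.05 in that model, "separate" marks a gene whose 2 mutant arrays lie both above or both below the 2 control arrays, and adjusted p-values are Benjamini-Hochberg values over all 22626 probe sets. The titles do not say whether the 2 arrays of a genotype came from separate animals, so the p-values measure the spread between duplicate arrays, which may be technical. A permutation of 2 against 2 arrays cannot go below an exact p of 0.333.

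No probe set passed the adjusted threshold of 0.05 in the limma fit. None passed with limma's moderated test either. In simulated standardized scores that test recovered 0% with 200 changed probe sets. With 4000 changed it recovered 51% at a shift of 4 SD of the noise and 98.3% at 8. How much its lack of calls adds therefore depends on how many probe sets changed, which is not known. The smallest adjusted p in the limma fit was 0.0517, shared by 5 probe sets, among them those of Eno3, Dsc3, Hsd17b12, Tmem144 and Prps1l3. At the nominal level 1865 probe sets (8.24%) were higher in mutant skin and 1161 (5.13%) lower, where 1131 in both directions together would be expected by chance. Among genes, 852 (6.87%) were nominal and higher and 618 (4.99%) nominal and lower, while 2666 (21.5%) were separate and higher and 2089 (16.9%) separate and lower. Differences were positive for 53.7% of probe sets and for 53.4% of genes, and negative for 46.6% of genes. The median difference over all genes was 0.1, and it moved to -0.04 with quantile normalization and to -0.08 with array medians subtracted. Counts within a group of genes are read against these background shares.

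Agreement within groups of arrays was weak over the whole array. The 2 mutant arrays correlated at r = 0.037 over all probe sets and the 2 control arrays at 0.173, against -0.173 to 0.076 between the groups. Probe sets of a same gene often disagreed: of the 754 other probe sets of nominal higher genes, 307 (40.7%) had the opposite sign, and of the 392 of nominal lower genes, 189 (48.2%), against 48.4% over all genes with several probe sets. Control probe sets also differed between arrays. The 3 Gapdh controls averaged -1.47 and -1.52 on the control arrays and 0.84 and 0.77 on the mutant arrays, and the 24 spiked poly-A controls averaged 0.3 and 0.19 against 1.38 and 1.13. The 18 hybridization controls went the other way and set pRb+/+ replicate 2 apart, at 0.37 and 2.05 against 0.09 and -0.03, and the 3 beta-actin controls averaged 0.3 and -0.86 against 1.21 and 1.41. The part of these shifts in the differences below was not tested. In whole skin, fewer cells of a type and less RNA per cell cannot be told apart, and because z-scores hold no level, the presence of a cell type's markers could not be checked.

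**Figure D1:**
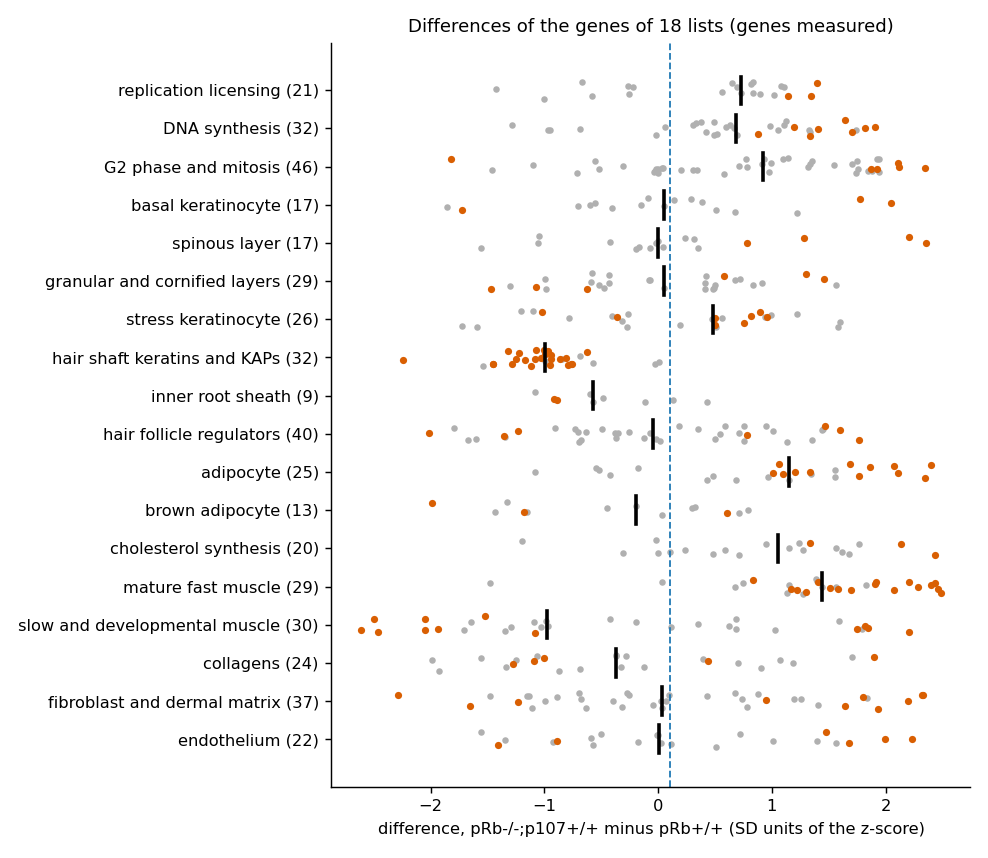
Differences in SD units (x axis, mutant minus control) of the measured genes of 18 lists (y axis, number of genes in brackets). Each dot is a gene, orange where nominal and grey otherwise, black bars are list medians and the dashed line is the median of all genes, 0.1. The hair shaft genes lie almost entirely to the left, with a median of -0.99, and the mature fast muscle genes to the right, with a median of 1.45.

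The pocket proteins and E2F factors were read first, because Rb1 checks the labels. Rb1, measured by 1 probe set, scored 1.21 and 1.07 on the control arrays and -0.22 and 0.36 on the mutant arrays. Both mutant arrays lay below both control arrays, by -1.07 ± 0.27 (SE, limma, adjusted p = 0.266), so the score went with the label without passing the test. Where its probes lie relative to the deleted part of the gene was not stated in any source used. Rbl1, which encodes p107, scored 0.08 and 0.21 in control and 1.3 and 1.14 in mutant skin, a difference of 1.07 ± 0.25 (adjusted p = 0.248). Its second probe set gave -0.12 ± 0.55, so a higher Rbl1 score rests on 1 of its 2 probe sets.

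E2f1, an activator of S-phase genes, scored -1.64 and -1.29 in control and 0.56 and -0.28 in mutant skin. The arrays were separate, with a difference of 1.61 ± 0.48 (adjusted p = 0.314), but the second E2f1 probe set again had the opposite sign (-0.31 ± 0.72). E2f6, a repressor that works without pocket proteins, scored -0.04 and -0.62 against 1.73 and 1 (difference 1.7 ± 0.57, adjusted p = 0.352). Of the 10 genes measured in this family, 3 were nominal and higher (Rbl1, E2f1 and E2f6, all genes 6.87%) and 1 nominal and lower (Rb1, all genes 4.99%). The arrays of the other 6 overlapped: differences were 1.37 ± 1.12 for E2f5, 1.01 ± 1.17 for E2f3, 0.38 ± 0.77 for Tfdp1, the dimerization partner, 0.25 ± 0.44 for E2f8, 0.13 ± 0.46 for E2f4 and -0.12 ± 0.9 for Rbl2.

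Genes that license and carry out DNA replication are the textbook targets of E2F. The promoters of 4 that were nominal and of Rbl1, picked after their values were seen, are shown here because they carry the E2F consensus, counted below. The windows are 60 bases of RefSeq promoter sequence on GRCm38.p6, read 5′ to 3′ on the gene's strand and ending at or before the transcription start, with every match to the consensus in capitals.
Mcm5 (chr8:75109330-75109389, + strand): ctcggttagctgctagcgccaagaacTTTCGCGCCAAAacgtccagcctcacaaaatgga
Mcm6 (chr1:128359782-128359841, - strand): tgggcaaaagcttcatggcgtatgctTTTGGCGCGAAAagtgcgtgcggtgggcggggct
Uhrf1 (chr17:56304102-56304161, + strand): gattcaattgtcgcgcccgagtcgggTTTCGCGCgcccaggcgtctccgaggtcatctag
Rfc3 (chr5:151651209-151651268, - strand): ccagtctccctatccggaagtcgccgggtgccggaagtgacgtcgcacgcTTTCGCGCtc
Rbl1 (chr2:157204535-157204594, - strand): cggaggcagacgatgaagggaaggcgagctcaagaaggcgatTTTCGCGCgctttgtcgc
The motif was searched as TTTCCCGC, TTTCGCGC, TTTGCCGC and TTTGGCGC on both strands, from 250 bases before to 50 after the start. In Mcm5 and in Mcm6 matches on opposite strands overlap and form 1 capital run.

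The consensus was present in 744 of 32851 promoters of the table (2.26%) and in 402 of the 9887 measured genes with a promoter (4.07%). It was found in 8 of 17 licensing genes (47.1%), 9 of 29 DNA synthesis genes (31%) and 0 of 26 hair shaft genes with a promoter in the table. Over all measured genes, those with the motif had a median difference of 0.34 and 10.4% were nominal and higher, against 0.1 and 6.81% without it. In the licensing list all 8 genes with the motif had positive differences (median 0.96), against 3 of 9 without it (median -0.25). The DNA synthesis list showed no such split, with medians of 0.7 with and 0.74 without the motif. A match is a description of letters and not evidence of binding.

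The MCM genes, which encode the replicative helicase, led the licensing list. Mcm5 scored -1.55 and -1.02 on the control arrays and 0.08 and 0.14 on the mutant arrays, a separation of 1.39 ± 0.2 (adjusted p = 0.155). Mcm6 scored -1.35 and -0.93 against -0.16 and 0.16, and Mcm4 -1.05 and -1.31 against -0.25 and 0.57. Both were separate and nominal, by 1.14 ± 0.33 (adjusted p = 0.304) and 1.34 ± 0.43 (adjusted p = 0.341), and each had a second probe set of the same sign. Cdc6, which loads the helicase, differed by 0.57 ± 0.25 without reaching the nominal level. Of 21 licensing genes 14 differences were positive (all genes 53.4%). Of the 21, 3 were nominal and higher (all genes 6.87%) and 0 nominal and lower (all genes 4.99%). The list median of 0.73 rested on pRb+/+ replicate 1: it was 0.1 without that array and 0.26 without pRb-/-;p107+/+ replicate 1, and the median scores on the arrays were -1.06 and -0.03 in control against -0.2 and -0.31 in mutant skin, which overlap.

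Of 32 DNA synthesis genes 27 had positive differences (all genes 53.4%), with a median of 0.68, and 15 were separate and higher (all genes 21.5%). Of the 32, 8 were nominal and higher (all genes 6.87%) and 0 nominal and lower (all genes 4.99%). Prim1, the primase subunit that starts new strands, scored -1.11 and -1.13 in control and 0.32 and 0.11 in mutant skin (1.34 ± 0.11, adjusted p = 0.0816). Pcna, the sliding clamp of the replicative polymerases, scored -1.22 and -1.12 against 0.63 and 0.31 (1.64 ± 0.24, adjusted p = 0.156). Uhrf1, which guides maintenance of DNA methylation, was nominal with both of its probe sets: the one that stands for the gene scored 0.14 and -0.06 against 1.04 and 1.43 (1.19 ± 0.26, adjusted p = 0.225), and the other differed by 2.62 ± 0.19. Pole, a leading-strand polymerase, differed by 1.7 ± 0.42 and Rfc3, a clamp loader subunit, by 1.82 ± 0.51, both with separate arrays. The nominal count was 5 when only the 4 arrays were fitted, with the moderated test and with quantile normalization, and 4 without pRb+/+ replicate 1 or without either pRb+/+;p107-/- array.

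In the later cell cycle, 35 of 46 G2 and mitosis genes had positive differences (all genes 53.4%), with a median of 0.93. Of the 46, 19 were separate and higher (all genes 21.5%). Nominal and higher were 5 (all genes 6.87%), against 1 lower (all genes 4.99%). Ncapd2, a condensin subunit, scored -0.28 and -0.42 in control and 1.74 and 1.42 in mutant skin, a difference of 1.93 ± 0.23 (adjusted p = 0.13). Cdc25c, the phosphatase that activates the mitotic kinase, scored -1.33 and -1.14 against 1.51 and 0.71 (2.35 ± 0.46, adjusted p = 0.199). Cdc20, an activator of the anaphase-promoting complex, scored -1.82 and -1.07 against 0.47 and 0.39 (1.87 ± 0.49), and its 2 other probe sets also had positive differences. Cenpa, the centromeric histone, and Anln, an actin-binding protein of cytokinesis, differed by 2.12 ± 0.6 and 2.11 ± 0.74. The exception was Ttk, a spindle checkpoint kinase, at 1.54 and 1.31 in control and -1.13 and 0.34 in mutant skin (-1.82 ± 0.61, adjusted p = 0.35). The count of 5 was 3 with quantile normalization, 4 in a fit of the 4 arrays alone, 11 with the moderated test and 8 without pRb+/+ replicate 2.

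Many mitotic genes carry the CHR element TTTGAA in their promoters, the site through which the DREAM and MuvB complexes act, and Ncapd2 and Cdc20 show it within 250 bases of the start.
Ncapd2 (chr6:125191676-125191735, - strand): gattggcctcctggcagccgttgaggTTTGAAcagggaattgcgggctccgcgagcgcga
Cdc20 (chr4:118437344-118437403, - strand): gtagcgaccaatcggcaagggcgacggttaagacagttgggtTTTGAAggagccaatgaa
Searched on both strands over the same promoters, the element was present in 17.9% of all promoters, 15.4% of measured genes and 27 of 38 G2 and mitosis genes (71.1%). Mitotic genes with it had a median difference of 1.09, and those without it 0.78. Over all measured genes, those with the element had a median difference of 0.13 and 5.53% were nominal and higher, against 0.11 and 7.22% without it. Hair shaft promoters held it in 11 of 26 genes (42.3%) with a median difference of -0.94, so the element was found in lists of either sign.

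Brakes on the cycle were measured too. Among 13 G1 cyclins and kinases only Ccne1, a partner of CDK2 and itself an E2F target, was nominal (all genes 11.9% in either direction). It scored -0.96 and -0.56 in control and 0.26 and -0.04 in mutant skin (0.87 ± 0.29, adjusted p = 0.352). Among 7 CDK inhibitors, Cdkn2d, which encodes p19INK4D, scored -1.39 and -1.41 against 0.41 and -0.5 (1.35 ± 0.38, adjusted p = 0.299). Cdkn1a, which encodes p21, differed by -0.51 ± 0.34 with one probe set and by 1.3 ± 0.37 with the other, and Cdkn2a, the locus of p16 and ARF, by 0.71 ± 0.98.

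Of 19 p53 targets 1 was nominal (all genes 11.9% in either direction). This was Ccng1, cyclin G1, at -1.16 and -1.79 in control and 0.98 and 0.76 in mutant skin (2.34 ± 0.26, adjusted p = 0.129), with its 2 other probe sets also positive. Zmat3 and Perp, other p53 targets, differed by -1.61 ± 0.59 and -1.05 ± 0.59. Apoptosis genes were split: of 23, 3 were nominal and higher (all genes 6.87%) and 2 nominal and lower (all genes 4.99%). Apaf1, the apoptosome scaffold and a known E2F target, scored -0.75 and -1.5 against 0.84 and 0.41 (1.75 ± 0.47, adjusted p = 0.284), but its other probe set pointed the other way. Bcl2l1, which encodes the survival factor BCL-XL, differed by -0.98 ± 0.28, and its 3 other probe sets all pointed the other way. Of 23 checkpoint and repair genes 1 was nominal (all genes 11.9% in either direction), the kinase Atm, which scored -0.6 and -1.58 against 0.99 and 1.71 (2.44 ± 0.45, adjusted p = 0.185). Of the 23 differences 14 were negative (all genes 46.6%).

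In the epidermis, the medians of the layer lists lay near that of all genes while single adhesion genes stood apart. List medians were 0.05 for 17 basal keratinocyte genes, 0 for 17 spinous genes and 0.05 for 29 granular and cornified genes, beside 0.1 for all genes. The basal median rested on control arrays that differed, with median scores of -0.82 and 0.52. It was 0.58 without pRb+/+ replicate 2 and -0.65 without pRb+/+ replicate 1. Dsc3, desmocollin 3, a desmosomal cadherin of the lower layers, scored -1.62 and -1.57 in control and 0.8 and 0.73 in mutant skin, a difference of 2.36 ± 0.09 (adjusted p = 0.0517). Dsc1, the desmocollin of the upper layers, scored -1.36 and -1.25 against 0.12 and -0.16 (1.28 ± 0.17, adjusted p = 0.141). Dsp, desmoplakin, which ties desmosomes to keratin, scored -1.89 and -1.21 against 0.33 and 0.98 (2.2 ± 0.34, adjusted p = 0.16), but its 2 other probe sets differed by -1.44 ± 0.63 and -1.01 ± 0.97. Ovol1, a transcription factor of differentiating keratinocytes, differed by 0.78 ± 0.15. These 4 were the nominal genes of the spinous list (all genes 6.87% nominal and higher), and 0 of the list were nominal and lower (all genes 4.99%).

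Basal genes went both ways. The integrin subunit Itga6 scored -1.17 and -1.66 in control and 0.62 and 0.64 in mutant skin (2.05 ± 0.51, adjusted p = 0.266), and Itgb1 -0.89 and -0.31 against 1.53 and 0.82 (1.77 ± 0.38, adjusted p = 0.225). Some further probe sets pointed the other way, 1 of 1 for Itga6 and 2 of 5 for Itgb1. Krt14, the basal keratin, scored 0.33 and 0.31 against -2.09 and -0.71 (-1.72 ± 0.57, adjusted p = 0.348), with 1 of its 2 other probe sets opposite. Trp63, the p63 regulator of stratified epithelia, differed by -1.86 ± 0.73 without reaching the nominal level, while both of its other probe sets were nominal and higher, at 2.04 ± 0.29 and 1.86 ± 0.3.

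In the granular and cornified layers 3 of 29 genes were nominal and higher (all genes 6.87%) and 3 lower (all genes 4.99%). Rptn, repetin, scored -0.48 and -0.81 in control and 0.88 and 0.75 in mutant skin (1.46 ± 0.19, adjusted p = 0.14). Casp14, the caspase of cornification, scored -1.26 and -0.92 against -0.04 and 0.46 (1.3 ± 0.33, adjusted p = 0.272), and Asprv1, a filaggrin-processing protease, differed by 0.58 ± 0.15. The lower 3 were all late cornified envelope genes: Lce1g scored 1.02 and 1.73 against -0.08 and -0.12 (-1.47 ± 0.33, adjusted p = 0.234), Lce1d differed by -1.07 ± 0.3 and Lce1i by -0.63 ± 0.14. Lce1 genes are near-identical copies in a cluster, so cross-hybridization between them cannot be set aside.

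Of 26 genes of stressed or wounded keratinocytes 6 were nominal and higher (all genes 6.87%) and 2 nominal and lower (all genes 4.99%). These counts were 3 and 1 in a fit of the 4 arrays alone and 0 and 0 with the moderated test. The list median was 0.48, and it was 0.03 without pRb+/+ replicate 2. The small proline-rich protein Sprr2d scored -0.88 and -0.99 in control and -0.15 and -0.09 in mutant skin (0.82 ± 0.06, adjusted p = 0.0796). Il1f9, an epidermal interleukin of the IL-36 family, scored -1.19 and -0.95 against -0.24 and -0.39 (0.76 ± 0.1, adjusted p = 0.143). Sprr1b, Sprr2h and the EGF receptor ligand Ereg followed with 0.9 ± 0.19, 0.5 ± 0.13 and 0.5 ± 0.11. Lcn2, lipocalin 2, ran the other way, at 0.06 and 0.15 against -1.04 and -0.78 (-1.02 ± 0.16, adjusted p = 0.161). Krt6b differed by -0.36 ± 0.1, while the better known stress keratins Krt6a and Krt17 differed by -1.72 ± 0.95 and -1.59 ± 0.84 without reaching the nominal level.

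The hair shaft list lay almost wholly on the lower side. The hair cortex and cuticle are built from hair keratins and keratin-associated proteins, and of 32 such genes 31 had negative differences and 30 were separate and lower (16.9% of all genes). Of the 32, 24 were nominal and lower (4.99% of all genes) and 0 nominal and higher, with a median difference of -0.99 and quartiles of -1.18 and -0.81. Median scores were 1.29 and 1.31 on the control arrays and 0.29 and 0.27 on the mutant arrays.

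Krt31, an acidic hair keratin, scored 1.33 and 1.28 in control and 0.44 and 0.29 in mutant skin, a difference of -0.94 ± 0.07 (adjusted p = 0.076). Krtap19-4 scored 1.55 and 1.43 against 0.09 and -0.02 (-1.46 ± 0.07, adjusted p = 0.076), and Krtap19-2 1.36 and 1.65 against 0.02 and 0.08 (-1.46 ± 0.11, adjusted p = 0.076). Both are glycine- and tyrosine-rich keratin-associated proteins, as is Krtap6-5, which scored 1.23 and 1.2 against 0.39 and 0.44 (-0.79 ± 0.05, adjusted p = 0.076). Selenbp1, a selenium-binding protein of the list, differed by -0.81 ± 0.06 and had a second probe set of the same sign. Krtap16-3 and Krtap12-1 were nominal with both of their probe sets: the first scored 1.2 and 1.41 against 0.3 and 0.42 (-0.94 ± 0.09, adjusted p = 0.104), the second 1.61 and 1.22 against -1.03 and -0.62 (-2.24 ± 0.41, adjusted p = 0.185). Gprc5d, an orphan receptor of the hair cortex that was outside the list, was among the genes with the smallest p, at 1.21 and 1.27 against 0.54 and 0.47 (-0.73 ± 0.05, adjusted p = 0.076). The one gene without a negative value, Krt84, differed by 0.01 ± 0.62 (-0.17 and -0.18 with quantile normalization and with array medians subtracted).

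**Figure D2:**
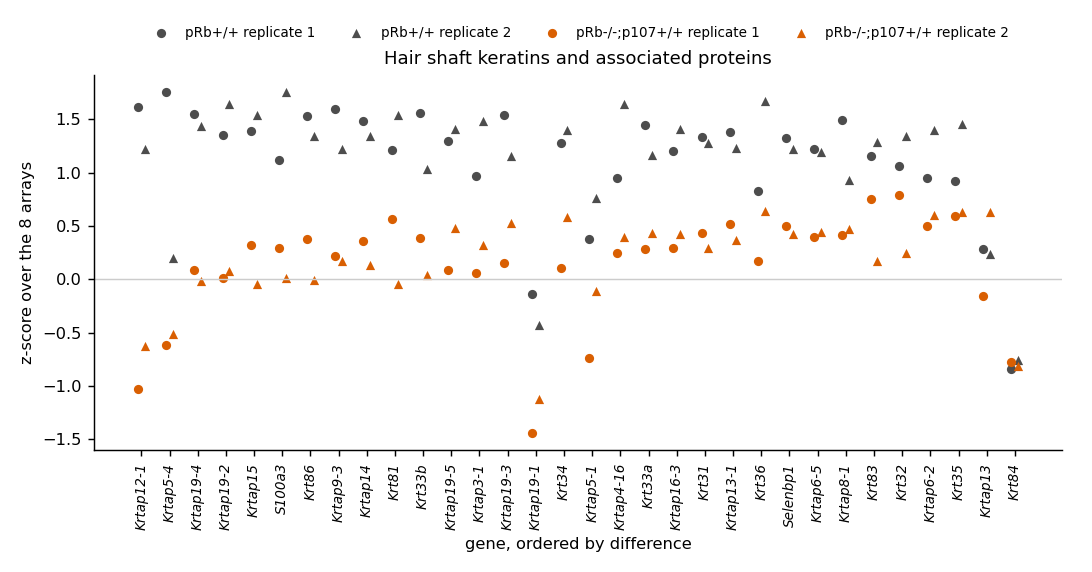
z-scores (y axis) of the 32 measured hair shaft genes (x axis, ordered by difference) on the control arrays (grey) and the mutant arrays (orange), circles for replicate 1 and triangles for replicate 2. In 30 of 32 genes both orange points lie below both grey points.

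The direction of the hair shaft list did not hang on 1 array: leaving out any 1 of the 4 arrays compared gave medians from -1.05 to -0.9. Leaving out a p107-/- array cannot change these differences. The nominal count did hang on the test, with 15 in a fit of the 4 arrays alone and 1 with the moderated test, under which the differences are the same. Many keratin-associated proteins are close copies of each other, so the 32 genes are not 32 separate measurements.

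In the inner root sheath, the layer that moulds the shaft, 7 of 9 differences were negative (all genes 46.6%) with a median of -0.58. Padi3, a deiminase of the sheath, scored 1.16 and 1.46 in control and 0.43 and 0.35 in mutant skin (-0.92 ± 0.16, adjusted p = 0.178), and Tchh, trichohyalin, its substrate, 1.4 and 1.22 against 0.19 and 0.65 (-0.89 ± 0.2, adjusted p = 0.231). The sheath keratins Krt25, Krt72 and Krt27 were separate and lower but not nominal, at -0.58 ± 0.22, -0.6 ± 0.23 and -0.49 ± 0.23, while Krt71 was separate and higher, at 0.43 ± 0.22, and also not nominal.

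Among 40 follicle regulators 4 were nominal and higher (all genes 6.87%) and 3 lower (all genes 4.99%), with a median of -0.04. Shh, the signal that drives follicle downgrowth, scored -1.06 and -1.77 in control and 0.27 and 0.1 in mutant skin, a difference of 1.6 ± 0.29 (adjusted p = 0.183). Vdr, the vitamin D receptor, and Bmpr1a, a BMP receptor, were at 1.47 ± 0.47 and 1.77 ± 0.61, with 1 of 1 and 2 of 4 other probe sets opposite. The Wnt ligand Wnt5a scored 1.51 and 1.35 against 0.02 and 0.39 (-1.23 ± 0.18, adjusted p = 0.154), and its other probe set differed by 0.31 ± 0.06. Msx1, a homeobox factor, scored -0.02 and 0.01 against -1.39 and -1.35 (-1.36 ± 0.22, adjusted p = 0.165), but its other probe set differed by 1.89 ± 0.9. Hoxc13, a regulator of hair keratin genes, scored 1.89 and 0.81 against -1.14 and 0.26; its arrays were separate, and the difference of -1.79 ± 0.73 was not nominal (adjusted p = 0.42).

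Adipocyte genes lay mostly on the higher side. Of 25 adipocyte genes 20 had positive differences (all genes 53.4%), with a median of 1.15, and 15 were separate and higher (all genes 21.5%). Of the 25, 12 were nominal and higher (all genes 6.87%) and 0 nominal and lower (all genes 4.99%). Median scores were -0.45 and -0.12 on the control arrays and 1.17 and 0.86 on the mutant arrays. Adipoq, which encodes the hormone adiponectin, scored -0.2 and 0.04 in control and 0.93 and 1.3 in mutant skin (1.2 ± 0.18, adjusted p = 0.16). Lipe, hormone-sensitive lipase, scored -1.08 and -0.76 against 0.9 and 1.48 (2.11 ± 0.25, adjusted p = 0.13). Sncg, gamma-synuclein, which is abundant in white fat, scored -0.94 and -0.57 against 1.62 and 1.56 (2.35 ± 0.15, adjusted p = 0.076). Cd36, a fatty acid transporter shared with muscle and capillaries, differed by 2.4 ± 0.39, with the same sign in all 3 probe sets, and Gpd1, which makes glycerol phosphate, by 2.08 ± 0.32. The other 5 members had negative differences, among them Cebpa, a regulator of fat cell differentiation, at -0.42 ± 0.36. The nominal count was 6 when the 4 arrays were fitted alone, 7 with the moderated test and 8 without pRb+/+ replicate 1.

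Of 13 brown fat markers 1 was nominal and higher (all genes 6.87%) and 2 lower (all genes 4.99%), with a median of -0.19. Ucp1, the uncoupling protein that defines brown fat, scored 1.3 and 0.86 in control and 0.8 and 0.46 in mutant skin (-0.45 ± 0.29, adjusted p = 0.591). Ppargc1a and Ppargc1b, coactivators of mitochondrial biogenesis, were nominal at -1.18 ± 0.34 and -1.99 ± 0.51, although 2 of the 4 other probe sets of Ppargc1a were opposite. Cox8b, a cytochrome oxidase subunit of brown fat and muscle, was at 0.61 ± 0.18.

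Cholesterol synthesis genes had positive differences in 16 of 20 (all genes 53.4%), with a median of 1.05. Of the 20, 3 were nominal and higher (all genes 6.87%). Nsdhl, a sterol dehydrogenase, scored -0.98 and -1.6 in control and 1.17 and 1.11 in mutant skin (2.44 ± 0.41, adjusted p = 0.173), and Fdps, farnesyl diphosphate synthase, -1.21 and -1.17 against 1.72 and 0.17 (2.14 ± 0.56, adjusted p = 0.277). Msmo1, a sterol oxidase, differed by 1.34 ± 0.44. Leaving out pRb+/+ replicate 1 left 1 nominal gene and a median of 0.7, and leaving out pRb-/-;p107+/+ replicate 2 gave 5 and 1.41. In 18 fatty acid synthesis genes the median was 0.28 and 3 were nominal and higher (all genes 6.87%). Scd1, the stearoyl-CoA desaturase of sebaceous gland and fat, was nominal with both probe sets, at 0.71 and 0.62 against 1.04 and 0.94 (0.33 ± 0.06, adjusted p = 0.178), and Hsd17b12, a fatty acid elongation enzyme outside the list, scored -1.63 and -1.53 against 0.8 and 0.84 (2.4 ± 0.09, adjusted p = 0.0517), with its second probe set at 2.25 ± 0.28.

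Skeletal muscle, which reaches skin samples as the panniculus layer beneath the dermis, gave the largest median of the 43 lists. Of 29 genes of mature fast muscle 28 had positive differences, 24 were separate and higher (21.5% of all genes), 17 were nominal and higher (6.87% of all genes) and 0 nominal and lower, with a median of 1.45. Median scores were -1 and -0.19 on the control arrays and 1.26 and 1.07 on the mutant arrays. Eno3, the muscle enolase, scored -1.01 and -0.9 in control and 1.51 and 1.57 in mutant skin, a difference of 2.49 ± 0.08 (adjusted p = 0.0517). Myl1, a fast myosin light chain, scored -0.73 and -0.55 against 1.26 and 1.29 (1.91 ± 0.17, adjusted p = 0.0926). Pygm, muscle glycogen phosphorylase, scored -1.23 and -0.63 against 1.58 and 1.48 (2.46 ± 0.23, adjusted p = 0.104). Ckmt2 and Pgam2, a mitochondrial creatine kinase and the muscle phosphoglycerate mutase, differed by 1.41 ± 0.12 and 1.3 ± 0.16. The one negative gene, Myh1, a fast myosin heavy chain, was at -1.48 ± 0.58, and its 2 other probe sets were opposite.

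Of 30 genes of slow and developing muscle 18 had negative differences (all genes 46.6%) and 14 were separate and lower (all genes 16.9%). Of the 30, 8 were nominal and lower (all genes 4.99%) and 4 nominal and higher (all genes 6.87%). Tnni1, the slow troponin I that fetal fibres also use, scored 1.05 and 1.38 in control and -1.35 and -1.45 in mutant skin, a difference of -2.62 ± 0.14 (adjusted p = 0.076). Myh3, the embryonic myosin heavy chain, scored 0.86 and 1.54 against -1.56 and -1.03 (-2.5 ± 0.35, adjusted p = 0.153). Tnnc1, slow troponin C, scored 1.11 and 0.95 against -1.11 and -1.76 (-2.46 ± 0.33, adjusted p = 0.143), while Myl4, the embryonic light chain, was at -2.05 ± 0.37 with its other probe set opposite, and Actc1, cardiac actin of fetal muscle, at -1.09 ± 0.24.

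In the same list Myl2, the slow regulatory light chain, scored -0.25 and -0.42 against 0.95 and 2.06 (1.85 ± 0.45, adjusted p = 0.262). Ankrd1, a stress-responsive muscle protein, Cdh15, a cadherin of satellite cells, and Myf6, a myogenic factor of mature fibres, were also nominal and higher, at 1.75 ± 0.34, 2.21 ± 0.71 and 1.82 ± 0.65. The list median of -0.98 depended on the probe set: averaging all probe sets of each gene gave -0.12 with 15 genes of each sign. Without pRb+/+ replicate 1 or without pRb+/+ replicate 2 the list had 5 nominal lower genes and 1 nominal higher gene, without pRb-/-;p107+/+ replicate 1 it had 5 and 4, and the 4 arrays alone gave 7 and 1. With the fast list the same averaging gave 1.47 and 28 positive genes. The fast count was 10 when the 4 arrays were fitted alone, and 12 to 16 with any 1 of the 8 arrays left out.

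**Figure D3:**
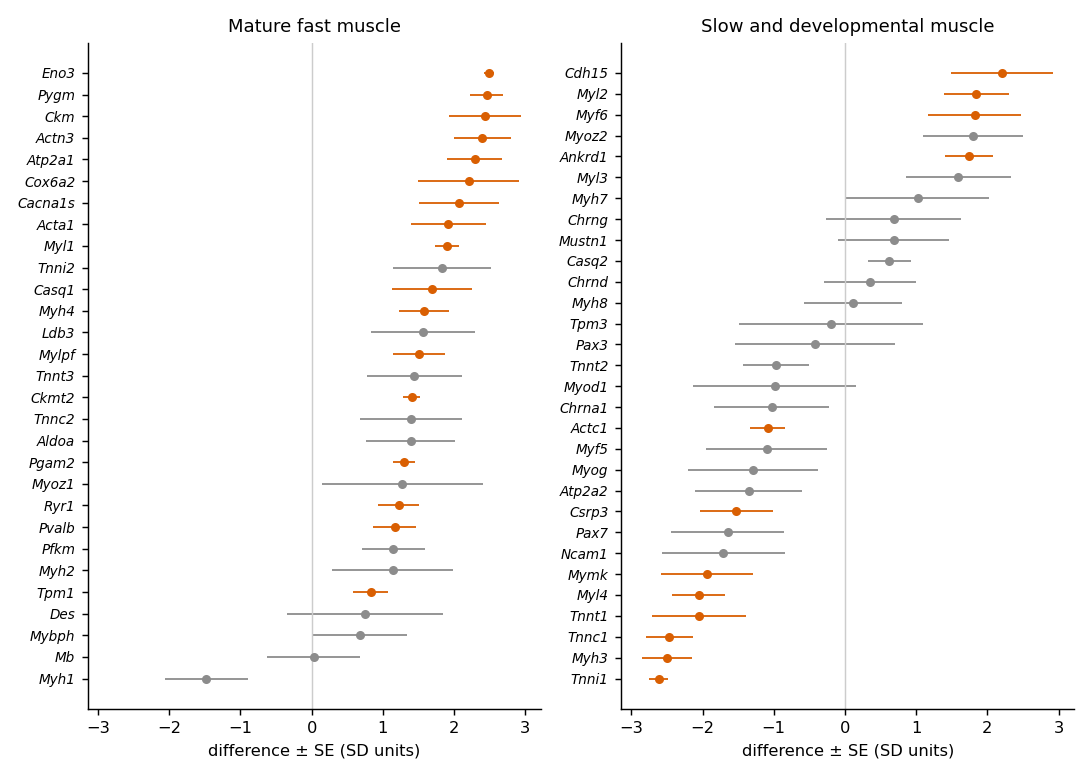
Difference ± SE in SD units (x axis, mutant minus control) of genes of mature fast muscle (left) and of slow and developmental muscle (right), ordered by difference, orange where nominal. On the left 28 of 29 genes lie above 0, and on the right Tnni1, Myh3 and Tnnc1 lie lowest, at -2.62 to -2.46.

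In the dermis the collagens leaned lower and other matrix genes went both ways. Of 24 collagen genes 16 had negative differences (all genes 46.6%) with a median of -0.37. Of the 24, 2 were nominal and higher (all genes 6.87%) and 3 lower (all genes 4.99%). The lower count was 1 in a fit of the 4 arrays alone and 5 with array medians subtracted. Col12a1, a collagen of fibril surfaces, scored -1.81 and -0.77 in control and 0.78 and 0.43 in mutant skin (1.9 ± 0.46, adjusted p = 0.254), while Col7a1, of the anchoring fibrils under the epidermis, scored -0.55 and 0.33 against -1.12 and -1.66 (-1.28 ± 0.4, adjusted p = 0.33). Col1a1, the main dermal collagen, was separate but not nominal, at 1.19 ± 0.49.

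Of 37 fibroblast and matrix genes 7 were nominal and higher (all genes 6.87%) and 3 lower (all genes 4.99%). The protease inhibitors Timp3 and Timp2 scored -1.06 and -1.73 against 0.68 and 1.17, and -0.76 and -1.68 against 1.07 and 1.13 (2.32 ± 0.31, adjusted p = 0.143, and 2.32 ± 0.34, adjusted p = 0.156). All 3 other probe sets of Timp3 were also positive. Thbs1 and Thbs2, the thrombospondins, differed by 1.93 ± 0.33 and 2.2 ± 0.44. The protease Mmp2, a target of Timp2, scored 0.24 and 0.04 against -1.71 and -1.31 (-1.66 ± 0.29, adjusted p = 0.178), and Lox, which crosslinks collagen, was at -2.29 ± 0.52 with both other probe sets opposite. Sfrp2, a secreted Wnt modulator of fibroblasts that was outside the list, scored 0.99 and 0.93 against -1.65 and -1.31 (-2.44 ± 0.13, adjusted p = 0.076).

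Vessels gave a split list of 22 genes, with 4 nominal and higher (all genes 6.87%) and 2 lower (all genes 4.99%). Cldn5, a tight junction protein of endothelium, scored -1.19 and -1.79 in control and 0.83 and 0.19 in mutant skin (2 ± 0.36, adjusted p = 0.183), and Pecam1, which encodes CD31, -1.49 and -0.85 against 1.79 and 0.34 (2.23 ± 0.58, adjusted p = 0.273). The receptor Tek scored 1.36 and 1.25 against 0.1 and 0.73 (-0.89 ± 0.23, adjusted p = 0.275), and Pdpn, podoplanin of lymphatic vessels and keratinocytes, was at -1.41 ± 0.46. The list median of 0.01 was -0.36 without pRb+/+ replicate 1 and 0.72 without pRb-/-;p107+/+ replicate 2. Among 21 lymphocyte genes and 14 melanocyte genes 0 were nominal (all genes 11.9% in either direction), at the 2 arrays a group had.

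Genes were also ranked by p across the array without regard to lists. Besides Eno3, Dsc3 and Hsd17b12, the lowest p-values among higher genes belonged to Tmem144, a membrane protein, at -0.95 and -0.96 in control and 1.47 and 1.59 in mutant skin (2.48 ± 0.09, adjusted p = 0.0517), and Ntn1, the guidance cue netrin 1, at -0.99 and -0.91 against 1.43 and 1.65 (2.49 ± 0.13, adjusted p = 0.076). The other Ntn1 probe set differed by -2.33 ± 0.46. Ascl2, a transcription factor, and Kifc1, a mitotic kinesin, differed by 2.59 ± 0.14 and 2.17 ± 0.13. Mobp and Mgat1, a myelin protein and a glycosyltransferase, completed the higher 10 with Sncg, at 2.08 ± 0.12 and 1.76 ± 0.11. Among lower genes Prps1l3 scored 1.59 and 1.62 against -0.43 and -0.4 (-2.02 ± 0.07, adjusted p = 0.0517) and Qk, the RNA-binding protein quaking, 1.5 and 1.62 against -0.78 and -1.01 (-2.46 ± 0.12, adjusted p = 0.076). Other probe sets were opposite for both, 1 of 1 for Prps1l3 (1.78 ± 0.58) and 1 of 3 for Qk (2.18 ± 0.37). Krba1 and the receptor phosphatase Ptprd followed with -2.33 ± 0.13 and -1.59 ± 0.1, and the other 6 were Tnni1, Sfrp2 and 4 hair genes.

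Of 4956 genes with 2 or more probe sets, 31 had all of them nominal and higher and 13 all nominal and lower. Of all single probe sets, 8.24% were nominal and higher and 5.13% nominal and lower. Whether 31 and 13 exceed what unrelated probe sets would give was not tested, so these counts do not show that probe sets agree. The genes were ranked by the largest p of their probe sets. The first 10 on the higher side included Hsd17b12, Scd1 and Uhrf1. Also among them was Nrip1, a nuclear receptor corepressor of fat, at -0.21 and -1.25 in control and 1.59 and 1.47 in mutant skin (2.26 ± 0.37, adjusted p = 0.171). Fgfr2, the receptor of keratinocyte growth factors, scored -1.94 and -0.78 against 0.33 and 0.74 (1.89 ± 0.48, adjusted p = 0.27). Others were Cacna2d1, a calcium channel subunit (2.1 ± 0.29), Car4, a carbonic anhydrase (2.38 ± 0.53), Glrx, glutaredoxin (1.72 ± 0.4), Gorasp2, a Golgi stacking protein (1.88 ± 0.25), and Pmm2, a mannose phosphate mutase (2.19 ± 0.58). On the lower side Krtap16-3 and Krtap12-1 came first, followed by Ltbp3, a TGF-beta binding protein (-1.29 ± 0.17), Cad, the first enzyme of pyrimidine synthesis (-1.93 ± 0.55), Calr, the chaperone calreticulin (-2.11 ± 0.43), Scara5, a ferritin receptor (-1.83 ± 0.34), and Creb3l2, a transcription factor (-1.7 ± 0.36). The other 3 of these 10 were Snap47, Efcab2 and Pdzk1ip1, at -2.27 to -1.79.

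Finally the differences were set beside those for pRb loss in skin without p107, from the other 4 arrays. The comparisons share no array, though each gene's unit, its SD over the 8 arrays, is common to both. A large difference of a gene in one comparison therefore limits its size in the other. The same sign was seen in both for 49.4% of probe sets and 48.8% of genes. In skin without p107 the median difference over all genes was -0.34, with 37.4% of genes positive and 62.6% not. Of 852 nominal higher genes 322 (37.8%) were positive there, and of 618 nominal lower genes 407 (65.9%) were negative, both near those background shares. The interaction, the difference between both pRb effects, was called for 0 probe sets (smallest adjusted p 0.0502) and was nominal for 2964 (13.1%).

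List medians are read here against all-gene medians of 0.1 with p107 kept and -0.34 without it. The DNA synthesis median was 0.68 with p107 kept and 1.2 without it, the licensing median 0.73 and 1.37, the G2 and mitosis median 0.93 and 0.23, and the hair shaft median -0.99 and -0.56. G1 cyclins and kinases had medians of opposite sign, 0.45 and -0.71. Pcna differed by 1.64 ± 0.24 and 1.75 ± 0.24, with an interaction of 0.11 ± 0.35 (adjusted p = 0.922), and Mcm5 by 1.39 ± 0.2 and 1.46 ± 0.2, with 0.07 ± 0.29 (adjusted p = 0.942). A missed threshold does not show that the effects were equal.

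Against the same all-gene medians of 0.1 and -0.34, the adipocyte median was 1.15 with p107 kept and -0.91 without it, and the fast muscle median 1.45 and 0.05. Adipoq differed by 1.2 ± 0.18 and -1.81 ± 0.18, an interaction of -3.01 ± 0.26 (adjusted p = 0.0883), and Eno3 by 2.49 ± 0.08 and -0.29 ± 0.08, an interaction of -2.79 ± 0.11 (adjusted p = 0.0765). Tnni1 differed by -2.62 ± 0.14 and -0.07 ± 0.14 (interaction 2.55 ± 0.2, adjusted p = 0.0817), Dsc3 by 2.36 ± 0.09 and -0.18 ± 0.09 (interaction -2.54 ± 0.12, adjusted p = 0.0765) and Lcn2 by -1.02 ± 0.16 and 2.14 ± 0.16 (interaction 3.16 ± 0.22, adjusted p = 0.0766). None passed the threshold, so a dependence on p107 was not shown for any single gene.

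**Figure D4:**
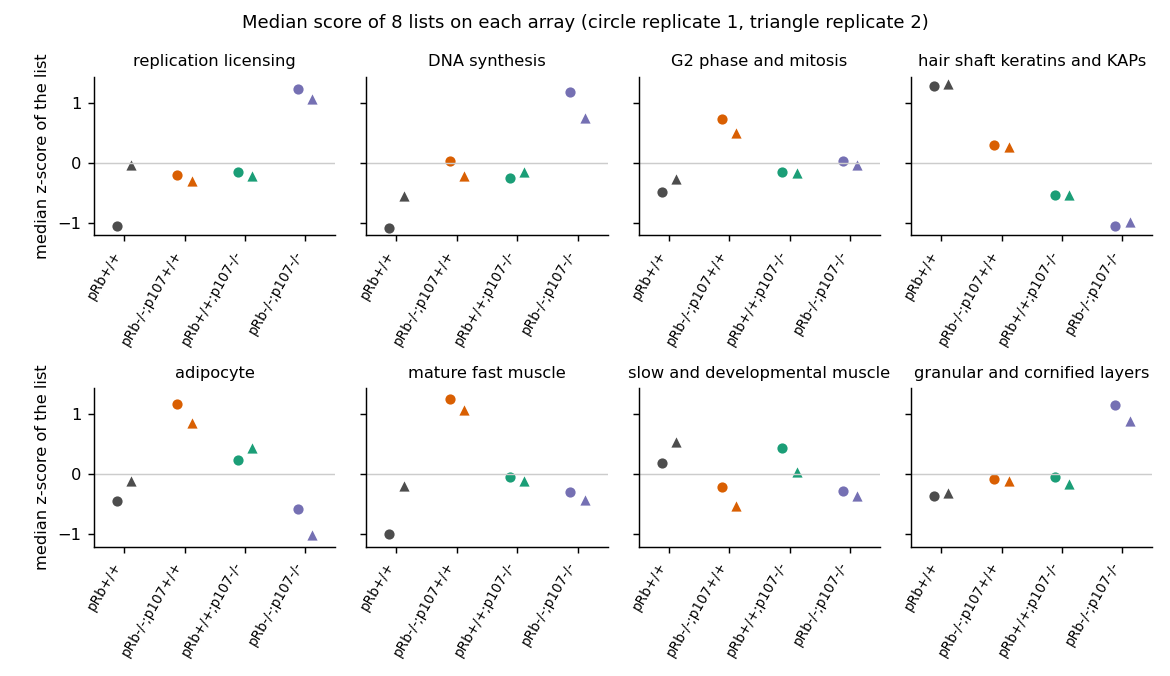
Median z-score (y axis) of 8 gene lists on each of the 8 arrays, grouped by genotype (x axis), circles for replicate 1 and triangles for replicate 2. The hair shaft list is highest on the control arrays (1.29 and 1.31) and next on the mutant arrays (0.29 and 0.27), while the adipocyte and fast muscle lists are highest on the mutant arrays.

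**Figure D5:**
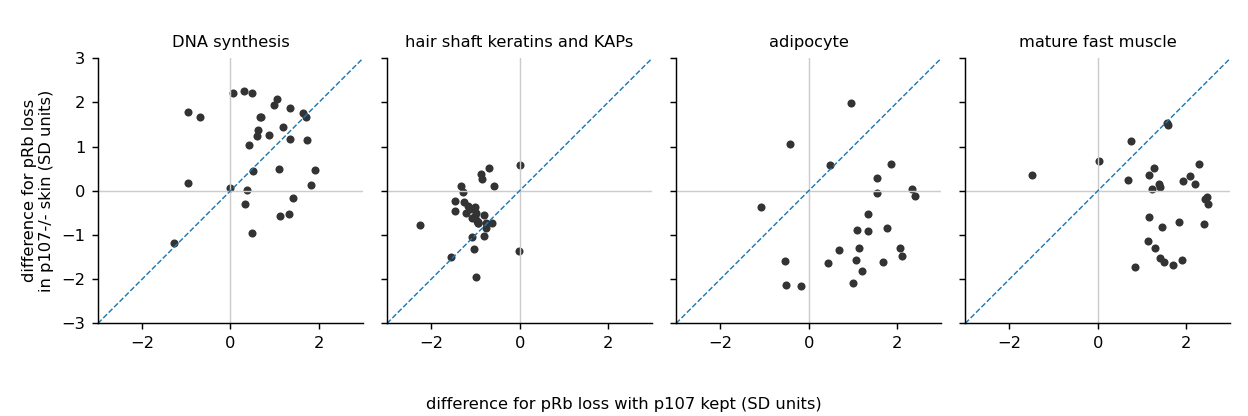
Difference for pRb loss in skin without p107 (y axis, SD units) against that with p107 kept (x axis, SD units) for the genes of 4 lists, each dot a gene, with the dashed line marking equal values. The adipocyte genes lie mostly right of 0 and below 0, with medians of 1.15 and -0.91, while the hair shaft genes lie mostly left of 0 and below 0.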

How the data were processed

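Total RNA of whole newborn skin, pooled from 3 animals per array, was hybridised to 1-colour mouse expression arrays, 2 per genotype. Array signals were summarised with RMA (version not given), per the submitters' processing notes. The deposited values are z-scores: this score has mean 0 and SD 1 over the 8 arrays in every probe set, up to rounding. The standardization is read from the values, and no source used states whether it was made on log values. Scanner files were not used here, so signal over background is unknown, and precision is limited by 2 arrays per genotype.

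Of 22690 probe sets 64 controls were left out. Platform annotation gave 20380 probe sets 1 gene symbol, 691 several and 1555 none, and genes were named only from those with 1. Each gene was represented by 1 probe set, chosen by its name (_at before _a_at, _s_at and _x_at, then the lowest number). A linear model with 4 genotype terms was fitted to all 8 arrays with limma 3.58.1 in R 4.3.3, with 4 residual degrees of freedom, ordinary rather than moderated statistics, and Benjamini-Hochberg adjustment over 22626 probe sets. The fit was tested on simulated standardized scores with shifts of 4 to 32 SD of the noise. With 200 changed probe sets the ordinary test recovered 6% at a shift of 4, 24% at 8 and 90% at 16. The moderated test recovered 0% at every shift. With 4000 changed probe sets they recovered 95.9% and 98.3% at a shift of 8. Named genes were all pocket protein and E2F genes, the 10 with the smallest p in each direction, the 10 in each direction whose probe sets were all nominal, up to 5 per direction in each list, and genes that define a list; others are said to be chosen after their values were seen. The 43 gene lists and the comparison itself were chosen with earlier results of these data known. Alternatives were moderated statistics, a fit of 4 arrays, quantile normalization, array medians subtracted, a replicate block, the mean of all probe sets of a gene, and each array left out in turn. Promoters came from RefSeq on GRCm38.p6.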

Additional observations from a re-analysis of the deposited data

Results flagged for a closer look

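For 6 lists the median scores of the 2 pRb-/- arrays both lay on one side of those of their pRb+/+ arrays with p107 kept and both on the other side without p107. These differences between backgrounds were not tested. The values below are median differences of the genes, beside all-gene medians of 0.1 with p107 kept and -0.34 in p107-/- skin.

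The adipocyte list had 1.15 with p107 kept and -0.91 in p107-/- skin. The mature fast muscle list had 1.45 and 0.05, so its gene median in p107-/- skin was not below 0 although its array medians were lower there. The MHC class II and Langerhans cell list, genes of antigen presentation, had 0.7 and -0.88; the 0.7 was 0.45 without pRb-/-;p107+/+ replicate 1, 1.1 without replicate 2 and 0.38 with quantile normalization. The interferon response list, genes of antiviral defence, had 0.71 and -0.14, the second above the all-gene median; the 0.71 was 0.27 without pRb-/-;p107+/+ replicate 1 and 0.42 with quantile normalization.

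In the next 2 lists the sign with p107 kept depended on the setting. The smooth muscle list, genes of contractile vessel and arrector cells, had 0.3 and -1.11; the 0.3 was -0.03 without pRb-/-;p107+/+ replicate 1 and 0.78 without replicate 2. The fibroblast and dermal matrix list had 0.04 and -1.05; the 0.04 ran from -0.19 to 0.43 with single arrays left out and was -0.08 with quantile normalization and -0.15 with array medians subtracted.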

How the results depend on the processing

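With 2 arrays per genotype, calls near the threshold depended on single arrays. Leaving out each of the 8 arrays gave 0 to 4 called probe sets, 1311 to 2341 nominal and higher, 848 to 1447 nominal and lower, 0 to 1 called interactions and 1903 to 3631 nominal ones. The 4 called probe sets appeared without pRb+/+ replicate 2, and leaving out pRb-/-;p107+/+ replicate 2 gave 2 and pRb+/+ replicate 1 gave 1. A fit of the 4 arrays alone gave 1039 nominal higher and 622 lower probe sets and cannot hold an interaction. The replicate block gave 1 called probe set; replicate numbers did not pair the arrays, since deviations of same-numbered arrays correlated at -0.131 to 0.105 over 6 pairs of genotypes. Medians of the 43 lists moved by less than the spread between replicates in 491 cases and by more in 111, over all alternatives. Many of the 491 could not move. The moderated test, the fit of 4 arrays, the replicate block and leaving out a p107-/- array all leave the differences unchanged. Of single genes, E2f4 was -0.04 with quantile normalization and -0.06 with array medians subtracted, and Krt84 -0.17 and -0.18. The mean of all probe sets turned Cdkn1a to 0.39, Bcl2l1 to 1.05, Trp63 to 0.68, Dsp to -0.09 and Msx1 to 0.26. With single arrays left out, E2f3 ran from -0.35 to 2.37, E2f8 from -0.12 to 0.63, Tfdp1 from -0.22 to 0.99, E2f4 from -0.14 to 0.4, Rbl2 from -1.37 to 1.12 and Krt84 from -0.03 to 0.05. Except for the probe-set means, where the probe sets differ, the cause was not tested.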

Other observations

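For the further lists below, the shares over all genes were 53.4% positive, 46.6% negative, 6.87% nominal and higher and 4.99% nominal and lower. Interferon response genes had 17 positive differences of 25, with 3 nominal and higher and 0 lower. Irf9, which carries interferon signals to the nucleus, differed by 2.34 ± 0.41 (limma, adjusted p = 0.178). Of 30 cytokine genes 3 were nominal and higher and 2 lower; Cxcl12, a homing chemokine, differed by -2.5 ± 0.35 (adjusted p = 0.151) and Csf1, a macrophage growth factor, by 1.9 ± 0.44. Of 70 oxidative phosphorylation genes 3 were nominal and higher and 1 lower, both below the shares over all genes, with a median of 0.11. Ribosomal protein genes had 30 negative differences of 43, with 3 nominal and higher, 5 lower and a median of -0.54. Notch genes had 13 negative differences of 21 and 1 nominal in each direction.

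Of the 20 nearest annotated genes that were measured beside Rb1, 10 on each side, 2 were nominal, where 11.9% of all genes were. Itm2b, the next gene, differed by -2.36 ± 0.39 (limma, adjusted p = 0.171) and Slc25a30 by 1.92 ± 0.49 (adjusted p = 0.267).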
